A study of Sus scrofa with 88 samples.

Results

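The genes described here encode hormones, a hormone receptor, a steroid-producing enzyme and proteins of the gonads and epididymis, all of them better known from other organs than from skeletal muscle. They are the peptide hormones and neuropeptides PRL, GHRL, NPW, UTS2 and ADCYAP1, the estrogen receptor ESR2, the adrenal enzyme CYP21A2, the oocyte growth factor BMP15 and the epididymal protein ELSPBP1. They were found as the spots whose symbol in the array's probe annotation is one of these 9, and each gene had 1 such spot. The 9 spots stand among 178 spots with a gene symbol (named spots, 175 genes) and 20736 spots in all. The other 20558 spots had no symbol here, so a gene without a named spot can still be on the array. Where listed genes are counted below, a spot means a named spot. The set was drawn up with earlier results of the same arrays known. PRL and ESR2 had been noticed for their dye effect, NPW and ELSPBP1 for a small unadjusted p in the loin muscle area litters, and CYP21A2, BMP15, GHRL and UTS2 for one in the backfat litters. Those values are therefore given here as descriptions and support nothing.

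The tissue was longissimus dorsi (loin) muscle of 176 F2 pigs from a cross of Duroc and Pietrain. In 24 litters the pigs were extremes for loin muscle area (LMA), and in the other 20 litters they were extremes for backfat depth (BF). Each of 88 arrays of 2 colors carried 1 high and 1 low littermate of the same sex, so every litter gave 1 female and 1 male array. There were 24 female and 24 male LMA arrays, and 20 female and 20 male BF arrays. All pigs came from a single cross and no untreated or unselected pig was hybridized. High and low refer only to the rank of a pig against its littermate. The high pig carried Cy3 on 47 arrays and Cy5 on 41.

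Peptide hormones such as prolactin and ghrelin are made in specialized cells of the pituitary or stomach, released into the blood and sensed by receptors on distant tissues. Skeletal muscle is a target of such signals more than a source of them. Estrogen receptors are transcription factors that act inside the cell once they bind the steroid. BMP15 and ELSPBP1 belong to reproduction, the first in the oocyte and the second in the fluid that coats sperm in the epididymis. None of the genes is a defining gene of muscle fibers.

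The deposited value of a spot is a log2 ratio of the 2 pigs on an array, and the intensities of the channels were not used here. A level of expression, or whether a gene was expressed at all in loin muscle, can therefore not be read from these values, and neither can the tissue label be checked by levels of muscle genes. In bulk tissue a lower ratio can come from fewer cells of a type or from less RNA per cell, and these cannot be told apart. Which pig is the numerator is not given in the sources used here, so signs hold relative to each other only. The same value is read in 2 ways. The ratio of high and low littermates is the value as deposited, in 1 fixed order. The ratio in dye order is the same value with its sign turned where the high pig carried Cy3, so that it runs in 1 fixed order of the dyes on all arrays. An SD of the ratios over all spots of an array was between 0.133 and 0.66 (median 0.222), and it was above 0.4 on 4 arrays.

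Prolactin (PRL), the pituitary hormone that starts milk production, stood clearly on one side of 0 in dye order. Its ratio ranged from -1.99 to 0.20 over the 88 arrays with a median of -0.53, and it lay above 0 on only 4 of them. With the high pig on Cy3 (47 arrays) the range was -1.77 to -0.02, and with the high pig on Cy5 (41 arrays) it was -1.99 to 0.20, so the 2 sets of arrays overlapped in dye order. Read as high and low littermate, the same values lay between 0.02 and 1.77 in the first set and between -1.99 and 0.20 in the second. The dye coefficient of PRL was -0.62 (standard error 0.05), a 1.54-fold difference between the channels, and it exceeded the size of 99.8% of all spots.

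ESR2, the beta form of the estrogen receptor, had the same pattern at a slightly smaller size. Its ratio in dye order ranged from -1.83 to 0.11 with a median of -0.49, and it was above 0 on 4 of 88 arrays. The dye coefficient was -0.54 (standard error 0.04), larger in size than that of 99.7% of all spots. PRL and ESR2 ranked 1 and 2 of 178 named spots by the size of this coefficient, the value for which they had been picked. Ratios larger than 2-fold in either direction were found on 17 arrays for PRL and on 10 for ESR2.

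The other 7 genes lay close to 0 in dye order. BMP15, a growth factor that the oocyte secretes to the surrounding follicle cells, ranged from -0.22 to 0.08 with a median of -0.06 and was below 0 on 72 arrays. Its coefficient was -0.053 (standard error 0.007). ADCYAP1, the neuropeptide PACAP that stimulates adenylate cyclase, ranged from -0.49 to 0.23 (median -0.01) with a coefficient of -0.027 (standard error 0.012). ELSPBP1, a sperm-binding protein of the epididymis, ranged from -0.14 to 0.27 (median 0.03) with a coefficient of 0.029 (standard error 0.007). GHRL, the stomach hormone ghrelin that stimulates appetite and growth hormone release, ranged from -0.09 to 0.26 (median 0.02) with a coefficient of 0.023 (standard error 0.006). The coefficients of UTS2, the vasoactive peptide urotensin 2, CYP21A2, the 21-hydroxylase of cortisol and aldosterone synthesis, and NPW, the neuropeptide W, were 0.020 (standard error 0.011), -0.024 (0.026) and 0.001 (0.007). The median size of the dye coefficient was 0.03 over the 9 genes and 0.05 over all spots.

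By limma, 6 of the 9 genes passed an adjusted p of 0.05 for dye, 4 of them negative (PRL, ESR2, BMP15 and ADCYAP1) and 2 positive (GHRL and ELSPBP1). Of all 20736 spots 61.1% passed, 30.4% negative and 30.7% positive. Nothing is read from the count of members, since this contrast chose some of them. The call for ADCYAP1 was lost under each of the 7 other settings fitted for dye (the litter as a block, each trait alone, 2 rescalings, array weights, and leaving out the widest arrays), with adjusted p up to 0.536 on the BF arrays alone, and without the LMA female array of litter 12 (0.0846). It was kept with the dye term scaled by the dye slope described below (0.0189). CYP21A2 had -0.053 and passed (limma adjusted p = 5.54e-06) without the BF female array of litter 131, a setting added after the values were seen. CYP21A2 also passed on the LMA arrays alone (-0.055, adjusted p = 8.44e-04) and UTS2 with array weights (0.025, adjusted p = 0.0445). GHRL missed the threshold on the LMA arrays alone (adjusted p = 0.0613) and ELSPBP1 on the BF arrays alone (0.0733).

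**Figure D1:**
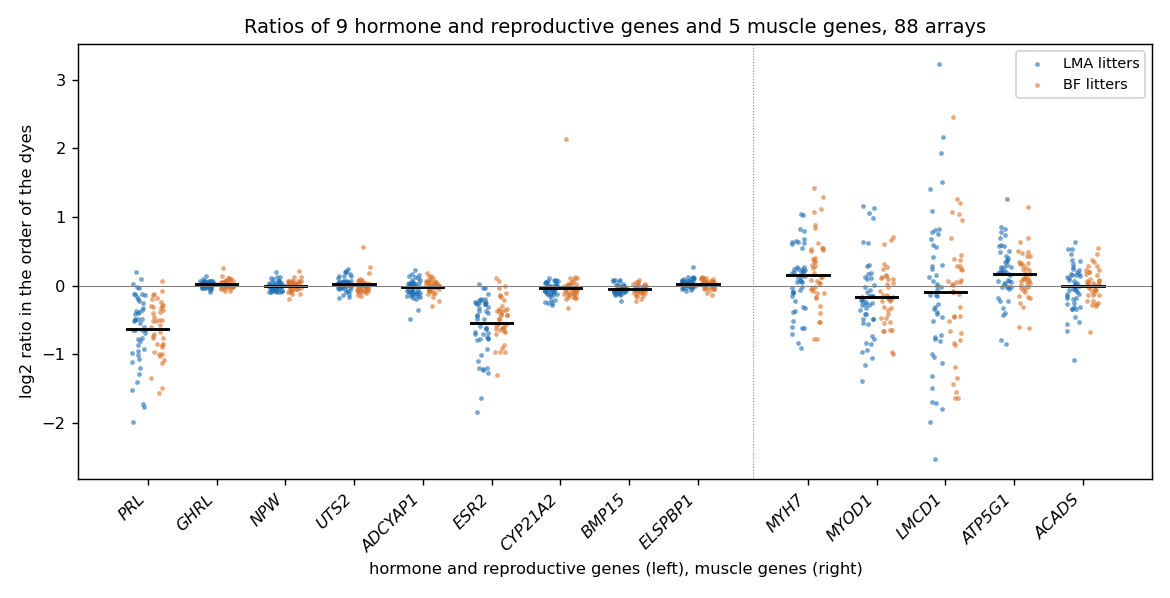
Log2 ratio in dye order (vertical axis) of each hormone and reproductive gene (left) and each muscle gene with a named spot (right) on 88 arrays. Each point is 1 array, blue for LMA and orange for BF litters, and the black line is the mean over arrays. PRL and ESR2 lie below 0 on 84 arrays each, the other 7 genes stay close to 0, and single arrays of CYP21A2 (2.13) and UTS2 (0.56) stand apart.

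The dye effect of PRL and ESR2 was present in every group of arrays. The median of PRL in dye order was -0.64 in LMA females, -0.49 in LMA males, -0.51 in BF females and -0.59 in BF males. For ESR2 the corresponding medians were -0.60, -0.46, -0.37 and -0.52. The ranges of the 4 groups overlapped for both genes. Under other settings of the fit the dye coefficient stayed between -0.70 and -0.55 for PRL and between -0.59 and -0.47 for ESR2.

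Other hormone and receptor genes with a spot gave smaller dye coefficients. Among 24 listed pituitary and hypothalamic hormones 6 had a named spot (PRL, POMC, HCRT, NPW, LHB and ADCYAP1). Of these 4 passed for dye, all negative, with PRL and ADCYAP1 among them. LHB, the beta chain of luteinizing hormone, had -0.18 (standard error 0.02) and HCRT, the hypothalamic orexin precursor, -0.09 (0.02), whereas POMC, the precursor of corticotropin, had 0.03 (0.02) and did not pass. Among 34 hormone receptors 6 had a spot and all 6 passed negative, as 30.4% of all spots did. LEPR (leptin receptor) had -0.17 (0.02), FSHR (follicle-stimulating hormone receptor) -0.14 (0.01) and PRLR, the receptor that binds prolactin, -0.10 (0.02). The median over the 6 receptors was -0.12, ESR2 included, beside -0.04 over the other 169 named spots, of which 108 lay below 0, and 0.004 over all spots. Of 30 gut and other peptide hormones 4 had a named spot (1 positive, GHRL, and 1 negative). RETN (resistin) was at -0.05 (0.01) and NPPA (atrial natriuretic peptide) at 0.00 (0.01), the latter not passing. Of 24 sperm, testis, epididymis and seminal plasma genes 5 had a named spot (1 positive, ELSPBP1, and 2 negative). ZPBP, a sperm protein that binds the egg coat, was at -0.13 (0.01) and PRM1, a protamine that packs sperm DNA, at -0.09 (0.01). Of 17 oocyte and ovary genes, only INHA (inhibin alpha, -0.08, standard error 0.06, not passing) had a named spot beside BMP15. Of 21 steroid synthesis genes only CYP21A2 had one.

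The 9 genes ranged from wide to narrow spots. Spread was measured as the SD of the residuals of a spot after dye and trait terms, over 88 arrays, and as the percentage of all spots with a smaller SD. PRL had an SD of 0.45 (above 94.7% of all spots) and ESR2 of 0.38 (91.3%). The SD was 0.11 for ADCYAP1 (42%) and 0.10 for UTS2 (37.4%). NPW (0.068, 12.7%), BMP15 (0.063, 8.31%), ELSPBP1 (0.060, 6.07%) and GHRL (0.054, 2.05%) were among the narrowest spots, with ratios of at most 0.27 in size on any array.

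CYP21A2 had an SD of 0.24 (76.6%), and this value rested on a single array. On the BF female array of litter 131 the ratio was 2.13, while the other 87 arrays lay between -0.33 and 0.13 in dye order. On that array 10 of 20736 spots had a larger ratio in size, and the array itself was of usual width (SD 0.218). The spots listed directly before and after CYP21A2 had ratios of 0.19 and -0.24 there. The male pair of the same litter gave -0.18 in dye order. Without the array the SD of CYP21A2 was 0.09 and its percentage 31.3, a comparison added after the values were seen. UTS2 had a similar but smaller point, 0.56 on the BF female array of litter 93 against -0.17 to 0.27 elsewhere, and the next spot in the list was at 0.62 on that array. Its percentage was 28.4 without the array.

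The ratios of the named muscle genes spread more than those of most of these genes. This spread holds measurement noise as well as differences between littermates, and they were not separated. Of 38 listed muscle genes 5 had a named spot, with a median residual SD of 0.49. The list also holds genes of energy metabolism, ATP5G1 and ACADS among them. The median was 0.10 for the hormone and reproductive genes, 0.16 for the other 169 named spots and 0.14 for all spots. LMCD1, a LIM-domain protein of striated muscle, ranged from -2.53 to 3.23 in dye order and had the largest SD of the named spots (0.99). MYOD1, a transcription factor that commits cells to muscle, had an SD of 0.50. That of MYH7, a myosin found in slow fibers, was 0.49. ATP5G1, a subunit of mitochondrial ATP synthase, had 0.37 and ACADS, an enzyme of short-chain fatty acid oxidation, 0.29. PRL and ESR2 lay between ATP5G1 and MYH7 in SD, and the other 7 genes had a smaller SD than each of the 5 muscle genes. The difference between the 2 sets is a description, because the members had been chosen with their values known. The muscle list too was chosen with earlier results of these data known.

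**Figure D2:**
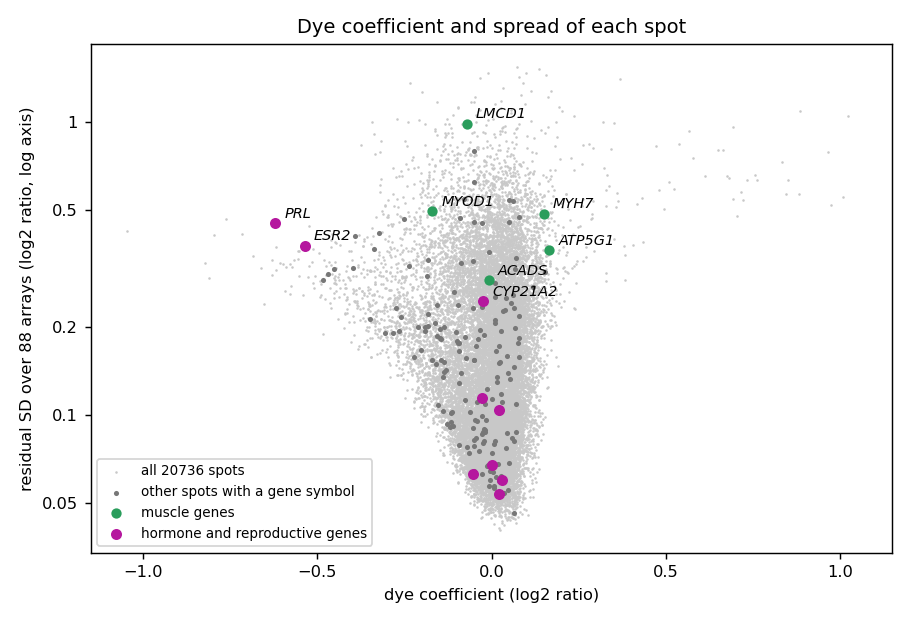
Dye coefficient (horizontal axis, log2 ratio) and residual SD over 88 arrays (vertical axis, log2 ratio, log scale) of every spot, with 16 spots outside the horizontal range not drawn. Grey points are all spots and darker grey the other named spots, green points are muscle genes and magenta points the hormone and reproductive genes. PRL and ESR2 lie at the left edge of the named spots at -0.62 and -0.54, CYP21A2 lies near 0 at an SD of 0.24, and the other 6 lie at an SD of 0.11 or less.

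High and low littermates did not differ for any of the 9 genes at the threshold. In LMA litters 0 of 9 genes passed by limma, as did 0% of all spots, and 1 gene (NPW) was under an unadjusted p of 0.05, beside 871 of 20736 spots (4.2%). In BF litters 0 of 9 passed, as did 0% of all spots, and 1 gene (CYP21A2) was under the unadjusted threshold, beside 772 spots (3.72%). NPW and CYP21A2 had been picked by these same contrasts.

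The hormone genes had LMA differences close to 0. PRL ranged from -1.99 to 1.77 on LMA arrays (median 0.07, 27 of 48 arrays above 0) with a coefficient of -0.030 (standard error 0.065). GHRL ranged from -0.14 to 0.09, with 25 arrays above 0 and a coefficient of 0.004 (0.008). NPW, which acts in feeding and hormone release in the brain, ranged from -0.20 to 0.09 and was below 0 on 31 arrays, with a coefficient of -0.025 (0.010) or 1.02-fold. The ranges of NPW thus covered 0 in both sexes, with 19 of 24 female and 12 of 24 male arrays below it. The coefficients were 0.001 (0.015) for UTS2 and -0.002 (0.017) for ADCYAP1. ESR2 ranged from -1.28 to 1.83 with 25 arrays above 0 and a coefficient of -0.009 (0.055). For CYP21A2, BMP15 and ELSPBP1 the coefficients were -0.013 (0.035), 0.008 (0.009) and -0.017 (0.009). Under 8 other settings that keep the high-low reading, PRL lay between -0.05 and 0.01 and changed sign in 2, and ESR2 did so as well.

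In BF litters PRL had the coefficient farthest from 0 among the 9 genes. Its ratio ranged from -1.08 to 1.56 (median 0.30, 24 of 40 arrays above 0), and the coefficient was 0.10 (standard error 0.07), or 1.07-fold. CYP21A2 ranged from -0.19 to 2.13 (median 0.04, 27 arrays above 0) with a coefficient of 0.085 (0.039). Without the female array of litter 131 that coefficient was 0.027 (0.015, unadjusted p = 0.0851, adjusted p = 0.999 by limma). ESR2 had 0.046 (0.060), UTS2 0.031 (0.017) and GHRL 0.016 (0.009). Without the array of litter 93 the coefficient of UTS2 was 0.016, and GHRL had 0.010 without the female array of litter 139, where its ratio was 0.26. ADCYAP1, BMP15, ELSPBP1 and NPW lay below 0 at -0.029 (0.018), -0.020 (0.010), -0.006 (0.010) and -0.001 (0.011). Without a dye term in the model PRL was at 0.19 and ESR2 at 0.13. The high pig was on Cy3 on 23 of the 40 BF arrays.

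**Figure D3:**
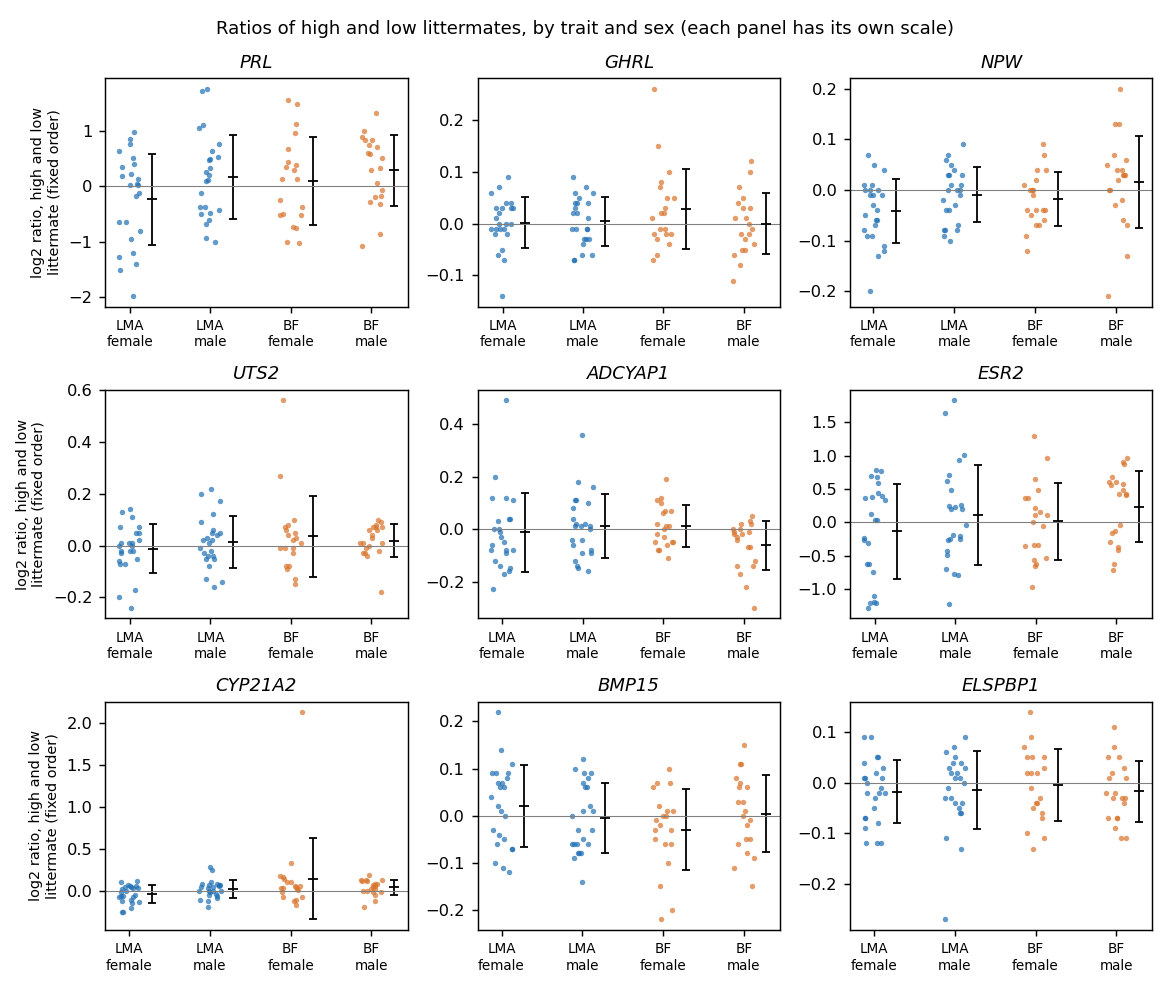
Log2 ratio of high and low littermates in the deposited order (vertical axis, a scale of its own in each panel) for each gene in LMA female, LMA male, BF female and BF male arrays. Points are arrays, 24 in each LMA and 20 in each BF group, and the bars are the mean and SD. The 4 groups overlap in every panel, and the single array at 2.13 stands apart for CYP21A2.

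The difference between male and female pairs was not used in choosing the genes and was tested for all of them. For LMA the ratio of PRL ran from -1.99 to 0.98 in females, with a median of 0.02, and from -1.01 to 1.77 in males, with a median of 0.16, so the sexes overlapped. The fitted difference of high and low pigs was -0.23 (standard error 0.09) in female pairs and 0.17 (0.09) in male pairs. Male minus female was 0.40 (standard error 0.12, n = 24 arrays of each sex), with an unadjusted p of 0.0016 and an adjusted p of 0.682 by limma over all spots, so it did not pass. ESR2 went the same way, by 0.25 (0.11, adjusted p = 0.682). This is not a separate result, since the ratios of PRL and ESR2 rise and fall together over arrays. By limma 0 of 9 genes passed and 0% of all spots, whereas 1508 spots (7.27%) were under the unadjusted threshold. Under 4 other settings the difference of PRL lay between 0.29 and 0.40, and the difference of ESR2 between 0.14 and 0.25 (adjusted p from 0.783 to 0.911). Without the LMA female array of litter 32, where PRL was at -1.99, the difference of PRL was 0.35 (adjusted p = 0.921). With the dye term scaled by the dye slope described below, it was 0.36 for PRL and 0.21 for ESR2 (limma adjusted p = 0.684 each).

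For BF the male minus female difference was 0.13 (0.14) for PRL and 0.17 (0.12) for ESR2. With the dye term scaled by the dye slope these were 0.05 and 0.10. ADCYAP1 had the smallest p, with -0.08 (0.04, unadjusted p = 0.0354, adjusted p = 0.999). Its ratio lay between -0.11 and 0.19 in females (11 of 20 above 0) and between -0.30 and 0.05 in males (5 of 20 above 0), so the sexes overlapped. Again 0 of 9 genes passed by limma and 0% of all spots, with 887 spots (4.28%) under the unadjusted threshold. The differences for LMA and BF were not tested against each other.

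PRL and ESR2 rose and fell together from array to array. After dye and trait terms were removed, Pearson's r of their residuals over 88 arrays was 0.816 and Spearman's rho was 0.789. It was 0.897 in LMA and 0.657 in BF arrays, 0.815 in female and 0.832 in male pairs, 0.806 without the 4 widest arrays and 0.791 without the 2 arrays farthest out for PRL. These values are a description, because 2 spots that share a large dye coefficient move together wherever the dye effect is stronger or weaker. The pair was also tested on residuals from which the dye slope, explained below, had been removed. There r was 0.737 and rho 0.684, each with a permutation p of 1e-05, the smallest that 100000 permutations can give, and an adjusted p of 3.60e-04 over the 36 pairs of the 9 genes. It was the 1 pair that passed by r. Only 1 slope per array was removed, so a part of the dye effect that does not follow the slope can remain. The test thus cannot separate the pair from the dye effect for which both genes had been picked, and no conclusion is drawn from it. The permutations took arrays as exchangeable although 2 arrays shared a litter. Over all 36 pairs the median r, with the slope kept, was 0.0593. Pairs of the other named spots, also with the slope kept, ranged from -0.614 to 0.861 with a median of 0.0393 over 14196 pairs.

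By rank, CYP21A2 was also correlated with both genes. With the slope removed its rho was 0.375 with PRL (permutation test, adjusted p = 0.0054) and 0.336 with ESR2 (adjusted p = 0.0179), whereas r was 0.0286 and 0.193 and did not pass. With the slope kept, rho was 0.435 and 0.414. Pearson's r was then 0.614 and 0.622 in LMA arrays, and -0.158 and 0.0646 in BF arrays. PRL and ESR2 move together and had been picked for their dye effect, so the 2 values are not separate results. A dye effect left after removal of the slope can remain here too, and no conclusion is drawn. The named spot of another gene closest to both PRL and ESR2 was CYP8B1, the liver enzyme that directs bile acid synthesis toward cholic acid. Its r was 0.806 and 0.793 with the slope kept, and 0.719 and 0.697 with the slope removed. CYP8B1 too had a dye coefficient far below 0, at -0.39 (standard error 0.04). For the remaining genes the closest named spots had r of 0.52 or less. They were PGLYRP1 and PRM2 for GHRL (0.339 and 0.308), FAS and HAPLN1 for NPW (0.299 and 0.259), HTR4 and TMPRSS15 for UTS2 (0.37 and 0.33), and PGLYRP1 and CSN1S1 for ADCYAP1 (0.52 and 0.497). For CYP21A2 they were MGAT4C and OPN1SW (0.253 and 0.242), for BMP15 PLCZ1 and DEFB110 (0.325 and 0.286), and for ELSPBP1 CRSP-2 and LOC396700 (0.37 and 0.332). The order is by r over all arrays, and some of these values were lower by rank or in 1 trait. MGAT4C had rho of 0.156 with CYP21A2, and r of 0.0291 in LMA and 0.469 in BF arrays. CRSP-2 had rho of 0.107 with ELSPBP1, and r of 0.558 in LMA and 0.00719 in BF arrays.

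The strength of the dye effect differed between arrays. For each array the ratios of all spots in dye order were regressed on the mean dye profile, and the slope is called the dye slope. It ran from 0.44 to 1.63 with a median of 1.00 and was fitted on all 20736 spots, the 9 included. The residual of a spot with a dye coefficient far below 0 falls as the slope rises by construction. Since that coefficient is the value for which PRL and ESR2 had been picked, their relation to the slope (r of -0.667 and -0.616, rho of -0.708 and -0.699) is a description and supports nothing. For the other 7 genes r was between -0.265 (UTS2) and 0.275 (ELSPBP1), and rho between -0.331 (CYP21A2) and 0.286 (ELSPBP1). The r of CYP21A2 was -0.104 over all arrays, -0.414 in LMA arrays and -0.0134 in BF arrays. With the slope removed, the SDs of the residuals of PRL and ESR2 were 0.37 and 0.32.

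**Figure D4:**
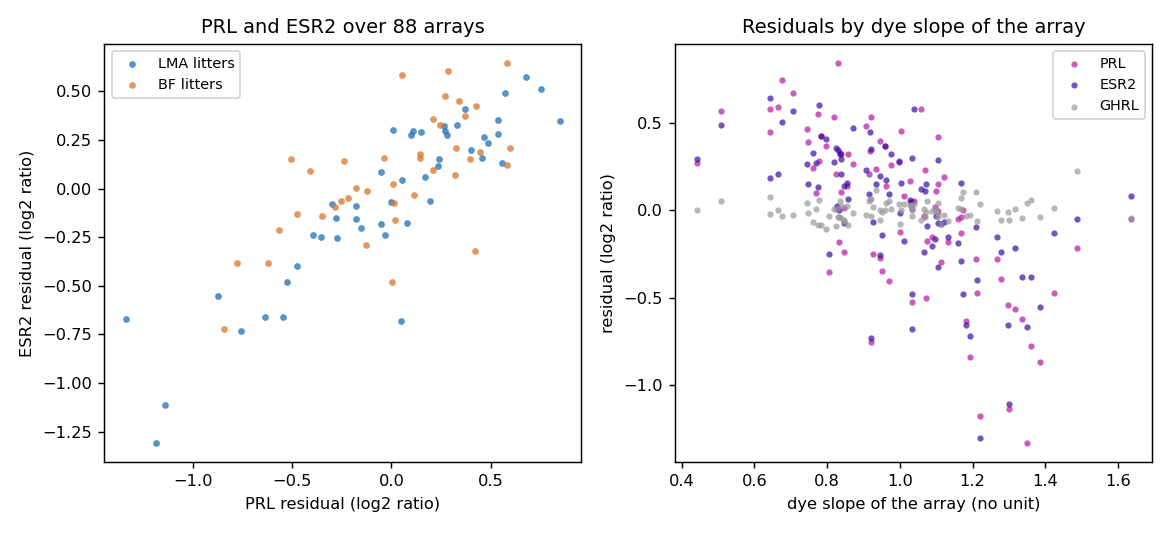
Left, residual of PRL (horizontal) against residual of ESR2 (vertical) on 88 arrays, blue for LMA and orange for BF litters (r = 0.816). Right, residuals of PRL, ESR2 and GHRL (vertical) against the dye slope of the array (horizontal, no unit), in which PRL and ESR2 fall with r of -0.667 and -0.616 and GHRL stays near 0. The fall of PRL and ESR2 follows by construction from their dye coefficients far below 0.

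The arrays of a litter were compared with each other. Female and male arrays hold different pigs, so this comparison is between littermate pairs. Over 44 litters the residuals of the female and the male array had r of 0.51 for PRL (rho 0.563) and 0.493 for ESR2 (rho 0.587), values that hold the dye slope of both arrays and are given with no test. Without the 2 litters farthest out r was 0.544 and 0.477. Within LMA and BF litters r was 0.473 and 0.599 for PRL, and 0.40 and 0.794 for ESR2. With the dye slope removed r was 0.358 and 0.355 and did not pass (permutation test, adjusted p = 0.0789 each over the 9 genes), whereas rho was 0.427 and 0.447 and passed (adjusted p = 0.02 each). This test covered only the 9 genes. It cannot separate PRL and ESR2 from any dye effect left after removal of the slope, for which they had been picked, so no conclusion is drawn from it. In litter 90 both arrays were far below 0 for both genes, with PRL at -1.56 in the female and -1.34 in the male BF array, and ESR2 at -1.30 and -0.96, all in dye order. The other 7 genes passed neither by r nor by rho, and with the slope removed r lay between -0.203 for ADCYAP1 and 0.13 for NPW. Whether littermates or conditions shared by their arrays move the 2 genes together was not tested.

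**Figure D5:**
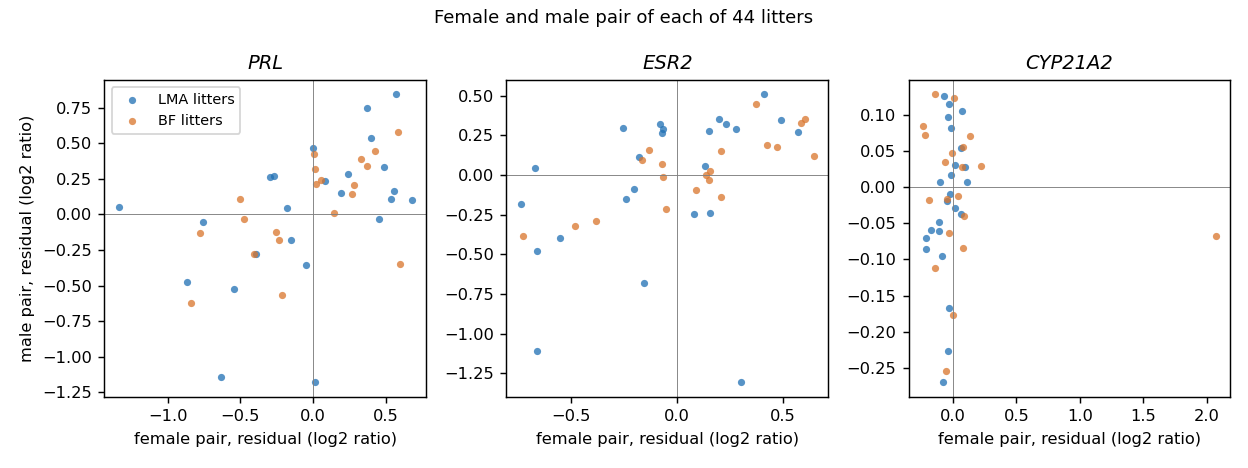
Residual log2 ratio of the female array (horizontal axis) and the male array (vertical axis) of each of 44 litters for PRL, ESR2 and CYP21A2, blue for LMA and orange for BF. PRL and ESR2 rise along the diagonal (r of 0.51 and 0.493). CYP21A2 has r of -0.0316 and rho of 0.162, with 1 female array far to the right. Its r is 0.355 in LMA and -0.15 in BF litters.

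Single arrays recurred among the extremes of several genes. The LMA male array of litter 71 was among the 3 farthest out for PRL, ESR2, CYP21A2, BMP15 and ELSPBP1. On it PRL was at -1.77, ESR2 at -1.83, CYP21A2 at -0.28, BMP15 at 0.08 and ELSPBP1 at 0.27 in dye order. Its SD over all spots was 0.306 and its dye slope 1.22, and the female pair of that litter had ESR2 at -0.24. Without this array the dye coefficient of ESR2 was -0.521 and its LMA sex difference 0.20.

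The named spots sat at few places of the array's order. With spots counted in 48 blocks of 432, the block size that gathers the named spots most closely and that the sources used here do not give, named spots occur in all 48 blocks, and all 178 lie at places 386 to 391 of their block and the 9 genes at places 386 to 390 of 9 different blocks. Within its own block PRL had the dye coefficient that ranked 2 of 432 by size and ESR2 ranked 4 of 432, which restates the value for which they had been picked. Their residuals had r of 0.0487 and 0.206 with the mean residual of the other spots of the block. The spots directly before and after PRL had dye coefficients of -0.05 and 0.12, and those beside ESR2 had 0.04 and -0.10. The residuals of PRL had r of 0.157 and -0.169 with the spots before and after it, and those of ESR2 had -0.484 and 0.412. Whether the places named in the annotation differ from the rest of the array was not tested.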

How the data were processed

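RNA from loin muscle was amplified, labeled with Cy3 or Cy5 and hybridized to the Pigoligoarray, a glass array of long oligonucleotides. The values are log2 ratios per spot and array, which the authors deposited after GenePix Pro quantification without background correction, lowess within print tips and an overall scale normalization. They were used without further normalization. Values of arrays whose high pig carried Cy3 had 10 digits and all others 6, and the LMA and BF mean profiles correlated at 0.938 in dye order and at -0.0748 as deposited. The ratio was therefore read as high and low littermate in 1 fixed order. Genome build and oligonucleotide sequences were not used.

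Spots were named through the platform's probe annotation, and all 178 named spots were matched to current gene records by gene ID. Linear models (limma 3.58.1, lmFit and eBayes, in R 4.3.3) held an intercept for dye and a column for each trait. Effects of sex, litter and array that are common to both channels cancel within a ratio. Differences between arrays in the strength of the dye effect do not cancel, and the main fit took arrays as independent. Benjamini-Hochberg adjustment ran over 20736 spots, with a threshold of 0.05. Sexes were compared by contrasts. The fits were tested on simulated data with independent normal noise, without a dye effect or shared litters. That simulation cannot show how the fits behave where those are present, and no conclusion is drawn from it. Correlations used 100000 permutations, two-sided, and n is 88 arrays or 44 litters. They were tested on residuals without each array's dye slope, a choice made after the values were seen. Precision is limited by the number of arrays.

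The members, lists and tests were chosen with earlier results of these data known. Named genes are the 9 members, the muscle genes with a named spot, up to 4 genes of each list, and the 2 named spots closest to each member by r. CYP8B1 falls under the last rule. The number of pigs is that of arrays times 2, and each pig was used once per the labels. Arrays of a litter share parents, so the litter was tried as a replicate block. Alternatives chosen after the values were seen left out the array farthest out for each gene, or scaled the dye term by the dye slope.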

Additional observations from a re-analysis of the deposited data

How the results depend on the processing

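The deposited order of the ratio decided most. Read in dye order as deposited, 10503 spots passed for LMA and 9411 for BF in place of 0, PRL was at -0.632 (LMA) and -0.619 (BF), ESR2 at -0.591 and -0.475, BMP15 at -0.051 for LMA, ELSPBP1 at 0.035 and 0.021, and NPW at 0.003 for BF. Under the other alternatives 0 spots passed for LMA, BF or either sex difference. With the litter as a replicate block (consensus correlation 0.126) 0 spots passed for LMA and 0 for BF, 1155 and 757 at unadjusted p under 0.05, and 12225 passed for dye. Over these alternatives 162 of 172 LMA and BF values of the 9 genes kept their direction and side of the threshold. The 10 others changed sign close to 0, with adjusted p of at least 0.967. PRL and ESR2 for LMA were at 0.009 and 0.015 with array weights and at 0.014 each without the 4 widest arrays, and UTS2 for LMA was at -0.002 with array weights. NPW for BF was at 0.001 with the replicate block, 0.004 with quantile normalization, array weights or its farthest array left out, and 0.003 with arrays scaled alike. For dye, NPW was at -0.002 on LMA arrays, -0.001 with array weights, with the scaled dye term or without its farthest array, and -0.0004 without the widest arrays, and CYP21A2 was at 0.014 on BF arrays and -0.053 (adjusted p = 5.54e-06) without its farthest array. Sex differences changed sign for ELSPBP1 (LMA, -0.001 without the widest arrays), UTS2 (BF, 0.014) and CYP21A2 (BF, 0.002), the last pair without their farthest array. The cause was not tested. Channel intensities were not used, so signal over background is unknown. Leaving out the narrowest spots removed GHRL, NPW, BMP15 and ELSPBP1 from that fit.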
